A study of Mus musculus with 4 samples.

Results

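The transcripts described here are those of 10 mouse genes of the insulin-like growth factor (IGF) system, measured by RNA sequencing in embryonic ventricles: the binding protein genes Igfbp2, Igfbp3, Igfbp4, Igfbp5, Igfbp6 and Igfbp7, the ligand gene Igf1, the receptor genes Igf1r and Insr, and Irs1, which encodes a docking protein of both receptors. They are 10 of the 38293 genes of the deposited table, and all 10 were found there by symbol. The set was chosen from results of the contrast used below, the conditional knockout (cKO) against control, so the differences between those groups are given as a description. The adjusted p values come from a fit across all genes and say only where a gene stands in that fit. The cKO group was 2 libraries of the genotype Hif1alphaflox/flox/Nkx2.5Cre/+, in which Cre recombinase expressed from the Nkx2.5 locus, active in cardiac precursors, removes the floxed part of the gene for HIF-1 alpha, the oxygen-regulated subunit of hypoxia-inducible factor 1. The control group was 2 libraries of the genotype Hif1alphaflox/flox/Nkx2.5+/+, so both groups carried the floxed alleles and only the cKO group carried Cre and 1 altered copy of Nkx2.5. All came from litter 6 at E12.5, on the C57BL/6 background, and from hearts without their atria and valve region. The labels do not say whether a library is 1 embryo or a pool, so p values measure the spread between these libraries. Effects of Cre or of the altered Nkx2.5 copy cannot be told apart from those of Hif1a loss, since no library carried Cre without the floxed alleles.

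IGF1 and IGF2 are secreted growth factors that signal through the IGF1 receptor and, for IGF2, also through a form of the insulin receptor, both of which are tyrosine kinases that recruit docking proteins such as IRS1 and activate the PI3K-AKT and RAS-ERK pathways. IGF binding proteins hold most IGF outside cells, where they can prolong its life, keep it from the receptor, or release it after cleavage by proteases. In the embryonic heart, IGF2 from the epicardium and endocardium is known to promote the growth of ventricular muscle. Several genes of this system, among them those for IGFBP1, IGFBP3 and IGF2, are known in other cells to respond to hypoxia.

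Library totals lay between 8561687 and 19801300 expected counts. The deepest library, cKO replicate 3, alone had a high level of the Y-linked gene Ddx3y, 101 CPM (counts per 1e6, scaled by edgeR's TMM method). Xist, an RNA of female cells, had 2.11 CPM there, against 2097 CPM in cKO replicate 2 and 2026 and 1754 CPM in control. By these genes cKO replicate 3 was male and the other libraries female, so sex was mixed in the cKO group only. Heart muscle markers summed to 33516 and 32885 CPM in the cKO libraries and to 36148 and 35112 CPM in the control libraries, and all 8 of them were measured in every library. Hif1a itself had 716 and 663 CPM in cKO ventricles, against 530 and 552 CPM in control ventricles (log2 fold change 0.35 ± 0.09 (SE), adjusted p = 0.317 in edgeR's quasi-likelihood test). A count over the whole gene includes the exons that Cre leaves in place, so it does not check the deletion. Nkx2-5 had 44.3 and 42.1 CPM in cKO ventricles, against 55.9 and 64.9 CPM in control ventricles (adjusted p = 0.153).

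Igfbp2 was 3.05-fold lower in the cKO ventricles, and it was the only gene of the 10 past the threshold, an adjusted p under 0.05. The promoters of Igfbp2, of its chromosomal neighbour Igfbp5 and of Irs1 are shown first: that of the gene past the threshold, that of the adjacent gene, and one that holds the same CACGTG palindrome as Igfbp2. Each line gives the 250 bases before the transcription start in RefSeq, 5′ to 3′ on the strand of the gene, on build GRCm38.p6, and capitals mark the core of the motif bound by hypoxia-inducible factors (ACGTG or GCGTG, read on both strands, so that CACGTG counts on each).

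Igfbp2 (chr1:72824230-72824479, plus strand): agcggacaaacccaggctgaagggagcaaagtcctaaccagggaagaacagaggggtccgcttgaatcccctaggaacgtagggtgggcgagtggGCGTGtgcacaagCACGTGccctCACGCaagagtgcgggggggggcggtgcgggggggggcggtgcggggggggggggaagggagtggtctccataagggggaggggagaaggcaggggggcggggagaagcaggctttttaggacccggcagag

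Igfbp5 (chr1:72874866-72875115, minus strand): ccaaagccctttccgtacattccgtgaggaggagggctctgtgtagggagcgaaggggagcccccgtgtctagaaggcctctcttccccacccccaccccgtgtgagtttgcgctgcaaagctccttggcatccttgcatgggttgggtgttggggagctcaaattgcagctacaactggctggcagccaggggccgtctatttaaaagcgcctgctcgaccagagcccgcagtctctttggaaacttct

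Irs1 (chr1:82291440-82291689, minus strand): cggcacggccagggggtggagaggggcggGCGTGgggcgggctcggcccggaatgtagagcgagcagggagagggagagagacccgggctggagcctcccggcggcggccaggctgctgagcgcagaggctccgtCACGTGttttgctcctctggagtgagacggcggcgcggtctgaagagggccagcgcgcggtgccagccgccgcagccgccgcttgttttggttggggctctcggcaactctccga

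The window of 300 bases around the first Igfbp2 start, with 50 bases after it, held 4 matches to the core, which began 155, 142, 141 and 132 bases before the start, and the middle pair is the palindrome CACGTG. Of all 32851 RefSeq windows of this length, 8.93% held at least 3 matches, 3.86% held at least 4 and 7.15% held the palindrome. Irs1 held 3 matches, with the palindrome, counted on each strand, beginning 115 bases before its start, and it was the only other gene of the set with that palindrome. Igf1r also held 3, Igfbp3 and Igfbp7 held 2 each, Igf1 held 1, and Igfbp4, Igfbp5 and Igfbp6 held 0. The second RefSeq start of Igfbp2, inside the gene, held 1. The table had no Insr window, and RefSeq starts differ from the gene starts given below. At least 1 match was present at 6 of the 9 genes with a window, against 46.7% of the 27025 genes in the whole table. The windows of the set were richer in CpG, which both forms of the core contain, with a median of 22.5 CpG per window against 7 over all windows. The first Igfbp2 window held 18 CpG, so the shares over all windows are not those of windows like it. A match is a description of the sequence, and binding was not measured.

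**Figure D1:**
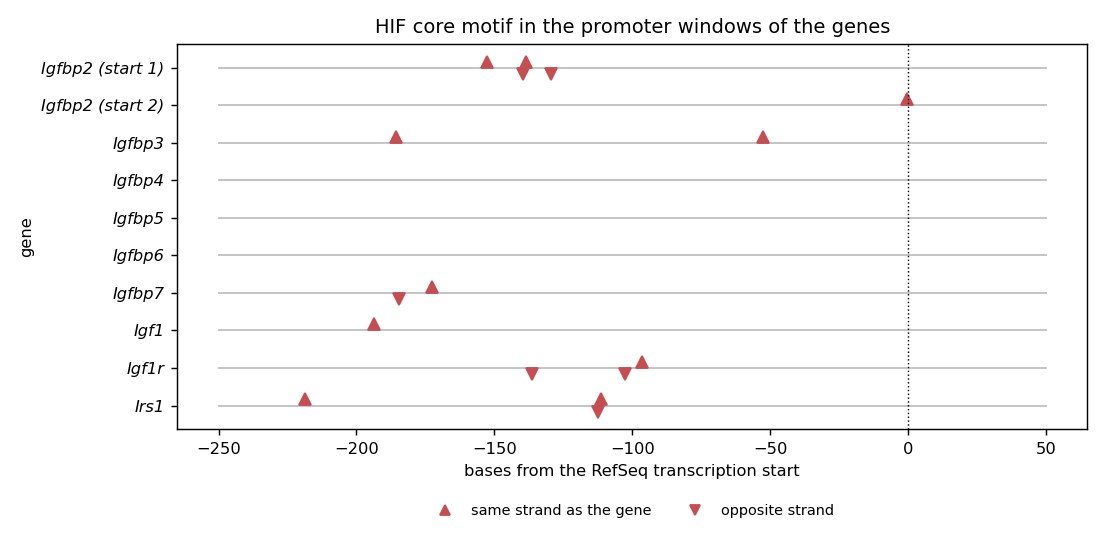
Positions of the hypoxia-inducible factor core motif in the 10 promoter windows of 9 genes, plotted against bases from the RefSeq transcription start (dotted line); upward triangles are matches on the strand of the gene and downward triangles matches on the other strand, each at the middle of its match. The first Igfbp2 start has 4 matches between 155 and 132 bases before it, while Igfbp4, Igfbp5 and Igfbp6 have 0.

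Igfbp2 (ENSMUSG00000039323, GRCm38 chromosome 1, 72824503 to 72852474, plus strand) encodes a secreted binding protein with a preference for IGF2. Its expected counts were 112 (replicate 2) and 215 (replicate 3) in cKO ventricles, against 258 (replicate 2) and 334 (replicate 3) in control ventricles. Scaled, this was 11.3 and 10.8 CPM in cKO ventricles, against 30.5 and 36.8 CPM in control ventricles. Both cKO libraries stood below both controls, and the gap between the groups was wider than the difference within either group. The cKO mean was 11.1 ± 0.375 CPM and the control mean 33.7 ± 4.48 CPM (SD over 2 libraries a group), and the log2 fold change was -1.61 ± 0.13 (SE; adjusted p = 0.00146, edgeR's quasi-likelihood test). Set against the control mean one at a time, cKO replicate 2 lay at -1.56 and cKO replicate 3 at -1.63 on the log2 scale, while the controls differed from each other by 0.27. Only 0.212% of the 13711 genes tested had a lower log2 fold change. In all 15 alternative settings the log2 fold change lay between -1.74 and -1.46 and the adjusted p between 5.58e-11 and 0.0194.

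Marker lists of other cells did not all move one way. The summed levels of the endothelial and the smooth muscle list were lower in both cKO libraries than in both controls. That of the heart muscle list above was so too. With 2 libraries a group, 18.8% of all genes tested also stood lower in both cKO libraries. The 12 endothelial and endocardial markers summed to 1593 and 1443 CPM in cKO, against 1702 and 1779 CPM in control, with all 12 negative, a median log2 fold change of -0.22 and 0 past edgeR's test. The 7 smooth muscle and pericyte markers summed to 897 and 1025 CPM in cKO, against 1333 and 1350 CPM in control (median -0.19 over the 6 tested, 0 past the test). Most of that sum was Acta2, smooth muscle actin, which had 497 and 599 CPM in cKO, against 833 and 862 CPM in control (adjusted p = 0.0598). Tagln, Cnn1 and the pericyte marker Cspg4 were also lower in both cKO libraries than in both controls (log2 fold changes -0.42 ± 0.09, -0.22 ± 0.08 and -0.15 ± 0.09). The pericyte markers Pdgfrb and Rgs5 overlapped between the groups (log2 fold changes -0.07 ± 0.17 and 0.30 ± 0.42). Myh11, smooth muscle myosin, had only 0.405 and 0.452 CPM in cKO, against 0.355 and 0.441 CPM in control. Which cells the summed list stands for was not tested. The 13 epicardial markers summed to 520 and 435 CPM in cKO, against 513 and 582 CPM in control, where the groups overlapped, 12 of 13 were negative (median -0.19) and Krt19, a keratin of the epicardium, fell (log2 fold change -1.03 ± 0.16, adjusted p = 0.0347). The 8 liver markers, of which Serpina1a and Fgb were at 0 in all libraries, summed to 14.9 and 10.2 CPM in cKO, against 9.34 and 14.9 CPM in control. Most of that sum was Trf, with 12.3 and 7.94 CPM in cKO, against 8.87 and 14.2 CPM in control. Only 2 of the 8 were tested, 1 negative (Trf) and 1 positive (Apoa2). The 7 neural crest and neural markers summed to 17.4 and 23.5 CPM in cKO, against 19.3 and 15.5 CPM in control (3 of 4 tested positive, median 0.58). The 10 immune markers summed to 102 and 76.8 CPM in cKO, against 93.4 and 111 CPM in control (7 of 10 negative, median -0.06). A large part was Lyz2, with 64.5 and 32.6 CPM in cKO, against 62.5 and 34.7 CPM in control. The sum hides a difference between the controls: over the immune list, control replicate 3 stood above control replicate 2 by a median of 1.43 on the log2 scale. The part of these cells in the value of Igfbp2 was not tested. In bulk ventricle, fewer cells of a type and less RNA per cell cannot be told apart.

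Of the 9 genes of the set that passed the filter on low counts, 1 fell, 0 rose and 8 did not pass, and the 8 had adjusted p values from 0.708 to 0.942. Over all 13711 genes tested, 70 passed (0.511%), 50 of them lower in cKO (0.365%). With 1 library left out the count over all genes lay between 39 (no control replicate 3) and 141 (no cKO replicate 2), while the set had 1 call each time. The median log2 fold change of the 9 was -0.090, with 7 negative values, against -0.0003 over all genes tested. The cKO and control libraries did not overlap for 5 of the 10 genes, 4 of them lower in cKO. The 5 include Igfbp6, which was not tested and rests on 2 to 6 expected counts. With 2 libraries a group, the groups also did not overlap for 38.2% of all genes tested, and for 18.8% with cKO below. As the contrast was used to choose the set, nothing is read from these counts.

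**Figure D2:**
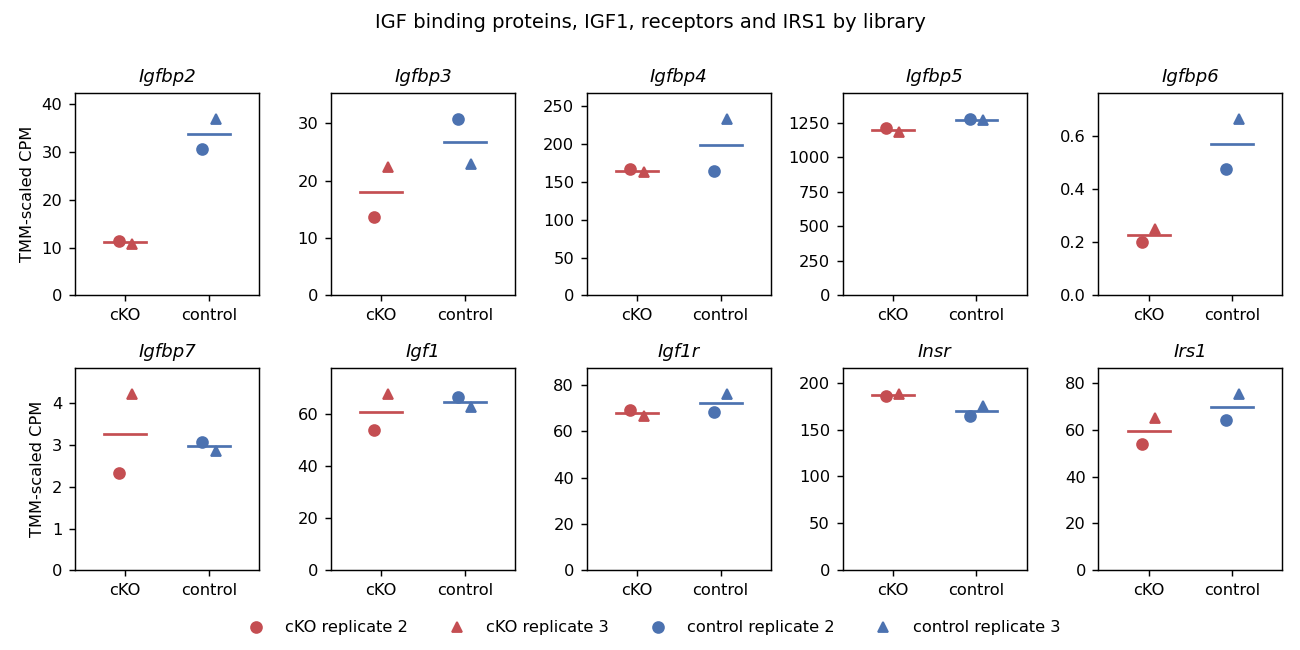
TMM-scaled CPM of each of the 10 genes in every library (circles replicate 2, triangles replicate 3, horizontal lines group means), with a separate axis from 0 for each gene. Igfbp2 stands at 11.3 and 10.8 CPM in cKO against 30.5 and 36.8 CPM in control, while the groups of Igfbp4, Igfbp7, Igf1, Igf1r and Irs1 overlap.

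The other binding proteins did not pass the test. Igfbp3 (ENSMUSG00000020427, chromosome 11, 7206086 to 7213923, minus strand), whose product is the main carrier of IGF in adult serum, had 13.7 and 22.4 CPM in cKO ventricles, against 30.7 and 22.9 CPM in control ventricles. The groups did not overlap, but cKO replicate 3 and control replicate 3 lay next to each other. Its log2 fold change was -0.53 ± 0.23 (unadjusted p = 0.0471, adjusted p = 0.708), and it ranged from -0.97 without cKO replicate 3 to -0.26 without cKO replicate 2.

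Igfbp4 (ENSMUSG00000017493, chromosome 11, 99041244 to 99054392, plus strand), an inhibitor of IGF action that the protease PAPP-A cleaves, had 167 and 163 CPM in cKO ventricles, against 165 and 233 CPM in control ventricles. Control replicate 3 stood apart and the other 3 libraries lay close together. The log2 fold change was -0.27 ± 0.14, but -0.0013 once control replicate 3 was left out and -0.50 once control replicate 2 was.

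Igfbp5 (ENSMUSG00000026185, chromosome 1, 72857932 to 72874884, minus strand), which binds to extracellular matrix as well as to IGF, had 1216 and 1182 CPM in cKO ventricles, against 1277 and 1271 CPM in control ventricles. Both cKO values were lower than both control values, and the log2 fold change was small, -0.09 ± 0.09. Its start lies 50381 bases from that of Igfbp2, and the 2 genes point toward each other. The nearest tested gene on the other side, Rpl37a, a ribosomal protein gene whose start lies 113213 bases away, differed by 0.31 ± 0.12 on the log2 scale (adjusted p = 0.666), by 0.50 without control replicate 2 and by 0.14 without control replicate 3. Expected counts of Rpl37a were not whole in all 4 libraries, so its value may include reads shared with other genes. Of 7 other genes of the table that start within 500 kb of the Igfbp2 start 3 were tested, and 0 of them passed edgeR's test.

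Igfbp7 (ENSMUSG00000036256, chromosome 5, 77349240 to 77408041, minus strand), a vascular relative that binds IGF weakly, had 2.33 and 4.22 CPM in cKO ventricles, against 3.07 and 2.87 CPM in control ventricles. The cKO libraries stood on either side of both controls, and the log2 fold change of 0.19 ± 0.36 turned to -0.35 without cKO replicate 3. Igfbp6 (ENSMUSG00000023046, chromosome 15, 102144362 to 102149511, plus strand), a binding protein with a marked preference for IGF2, had 2 and 5 expected counts in cKO libraries and 4 and 6 in control libraries. It did not pass the filter, and a difference was not detectable at this depth.

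Igfbp3 and Igfbp7 were both higher in cKO replicate 3 than in cKO replicate 2, by 0.71 and 0.84 on the log2 scale. The 13 markers of cushion mesenchyme and fibroblasts summed to 1982 CPM in cKO replicate 2 and 2640 CPM in cKO replicate 3, against 2283 and 2641 CPM in control. Of the 13, 0 passed edgeR's test, 7 were negative and 6 positive. The lowest, Col2a1, had 5.46 and 36.1 CPM in cKO, against 78.8 and 64.9 CPM in control (log2 fold change -1.67 ± 0.54). The 11 erythroid markers summed to 2840 CPM in cKO replicate 2 and 6868 CPM in cKO replicate 3, against 5364 and 6227 CPM in control. All 11 were negative in the fit (median log2 fold change -0.28). Set against the control mean, their median was -1.02 in cKO replicate 2 but 0.27 in cKO replicate 3. The part of these cells in the spread of Igfbp3 and Igfbp7 was not tested, nor was that of sex, in which the cKO libraries also differed.

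Compared per length, as CPM per kilobase of the union of a gene's exons (CPM per kb), the set spanned a wide range of levels in these ventricles. Igfbp5 was highest, with a mean over the 4 libraries of 206 CPM per kb (lowest 197, highest 213), and only 1.31% of genes tested had a higher level. Igfbp4 followed at a mean of 41.2 CPM per kb (37.0 to 52.8). Both were separated from each other and from the rest over all libraries. Insr had a mean of 13.0 CPM per kb (11.9 to 13.7) and Igfbp2 one of 12.1 (5.85 to 19.9). Igfbp3 had 7.17 (4.36 to 9.82), Irs1 7.06 (5.91 to 8.21) and Igf1 6.31 (5.42 to 6.81). From Insr to Igf1, each gene overlapped the next in the order over the libraries. At the low end, Igf1r had a mean of 4.17 CPM per kb (3.96 to 4.52), Igfbp7 2.58 (1.92 to 3.49) and Igfbp6 0.357 (0.182 to 0.595), and these were separated from their neighbours in the order. Igfbp2 had rank 4 in cKO replicate 2 and rank 7 in cKO replicate 3, against rank 3 in both control libraries.

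**Figure D3:**
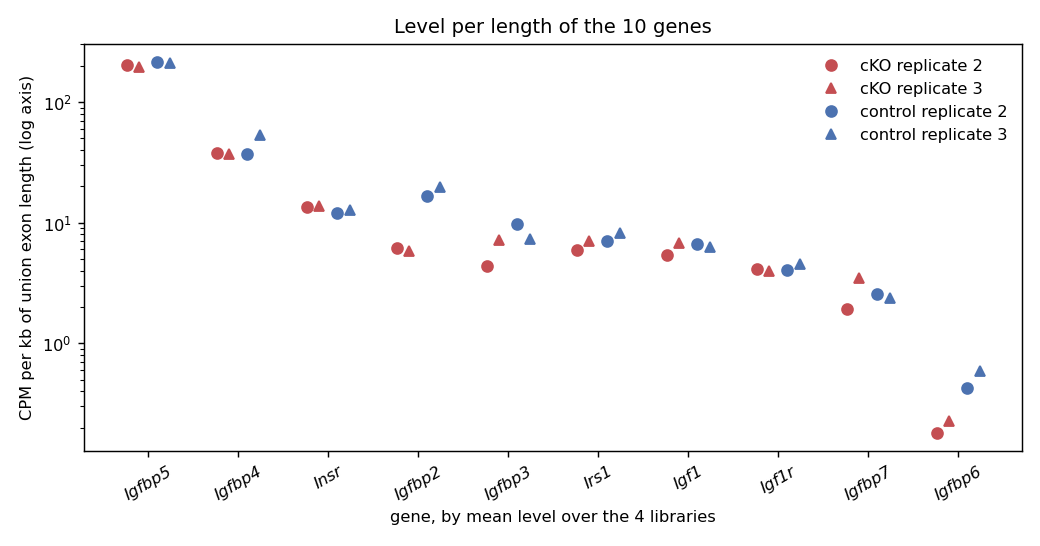
Level of the 10 genes in CPM per kilobase of union exon length (log axis), ordered by the mean over the 4 libraries, with red symbols for cKO and blue symbols for control libraries. Igfbp5 lies between 197 and 213 in all libraries, and Igfbp2 separates by group, at 6.13 and 5.85 in cKO against 16.5 and 19.9 in control.

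Within the summed level of the 6 binding proteins, Igfbp2 made up 2.43% and 2.33% in cKO libraries, against 5.91% and 6.77% in control libraries. Igfbp5 made up 80.1% and 78.6% in cKO libraries, against 76.1% and 71.8% in control libraries, and Igfbp4 14.9% and 14.8% against 13.4% and 17.9%. The summed level was 253 and 251 CPM per kb in cKO and 279 and 295 CPM per kb in control, a ratio of the group means of 0.877. Without Igfbp2 the sums were 247 and 245 CPM per kb in cKO and 263 and 275 CPM per kb in control, a ratio of 0.914. Igfbp5 stood 33.0 and 33.7 times as high as Igfbp2 per length in cKO libraries, and 12.9 and 10.6 times as high in control libraries. These shares sum to a whole in each library and are not independent of each other.

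**Figure D4:**
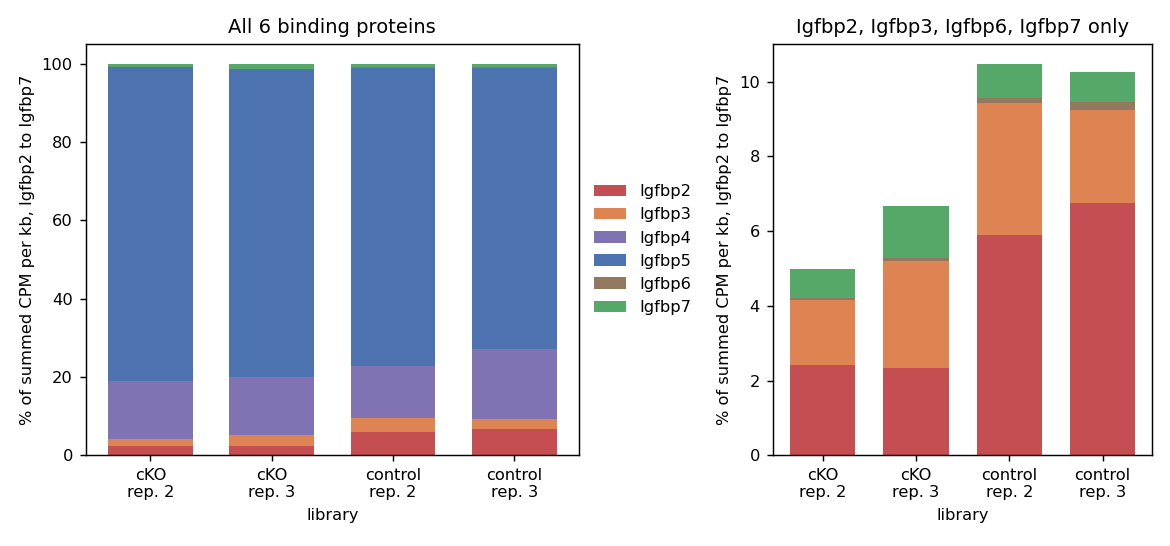
Share of each binding protein in the summed CPM per kb of Igfbp2 to Igfbp7 in each library; the left panel stacks all 6, and the right panel leaves out Igfbp4 and Igfbp5 on an enlarged axis that also starts at 0. Igfbp2 takes 2.43% and 2.33% in cKO against 5.91% and 6.77% in control.

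Among ligands and receptors no gene passed the test. Igf1 (ENSMUSG00000020053, chromosome 10, 87858265 to 87937042, plus strand) had 53.7 and 67.5 CPM in cKO ventricles, against 66.3 and 62.5 CPM in control ventricles, with overlapping groups and a log2 fold change of -0.08 ± 0.12. Igf2, the other ligand, had 4932 and 4824 CPM in cKO ventricles, against 4600 and 5235 CPM in control ventricles (log2 fold change -0.01 ± 0.10), and per length it stood between 120 and 159 times above Igf1 in the 4 libraries. Its direction differed between scalings, as the log2 fold change was 0.0099 with upper-quartile scaling. No counts were assigned to Igfbp1 in any library, which at these depths allows up to 0.303 and 0.151 CPM in cKO libraries and 0.355 and 0.331 CPM in control libraries (3 counts per library, counting error only).

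Igf1r (ENSMUSG00000005533, chromosome 7, 67952827 to 68233668, plus strand), which encodes the main signalling receptor for both ligands, had 69.2 and 66.5 CPM in cKO ventricles, against 68.2 and 76.0 CPM in control ventricles (log2 fold change -0.09 ± 0.09). With 1 library left out it lay between -0.17 (no control replicate 2) and -0.0088 (no control replicate 3). Insr (ENSMUSG00000005534, chromosome 8, 3122061 to 3279617, minus strand), the insulin receptor gene, had 186 and 188 CPM in cKO ventricles, against 164 and 175 CPM in control ventricles. Both cKO values were above both controls, and the log2 fold change was 0.14 ± 0.08 (adjusted p = 0.768), and 0.091 without control replicate 2. Per length, Insr stood 3.28 and 3.45 times above Igf1r in cKO libraries, and 2.94 and 2.82 times in control libraries. Igf2r, whose product takes up IGF2 for breakdown and does not pass on a growth signal, had 4129 and 4037 CPM in cKO ventricles, against 4076 and 4179 CPM in control ventricles (log2 fold change -0.02 ± 0.09, and 0.0057 with upper-quartile scaling).

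Irs1 (ENSMUSG00000055980, chromosome 1, 82233101 to 82291416, minus strand) had 54.0 and 65 CPM in cKO ventricles, against 64.2 and 75.1 CPM in control ventricles. The groups overlapped, and the log2 fold change was -0.22 ± 0.12 (adjusted p = 0.763) and ranged from -0.37 without cKO replicate 3 to -0.099 without cKO replicate 2. The counts of Irs1 are uncertain: 2822 of its 9144 exon bases are also those of the predicted gene Gm9747 on the opposite strand, and the library kit does not mark strand. The mean of Gm9747 was 40.9 ± 7.21 CPM for cKO libraries, against 40.8 ± 0.150 CPM for control libraries (SD), and reads in the shared stretch cannot be told apart. Irs2, the other widely expressed docking protein of this family, had 14.1 and 15.8 CPM in cKO ventricles, against 12.2 and 15 CPM in control ventricles (log2 fold change 0.14 ± 0.16).

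The rest of the pathway was taken from 8 lists holding 80 genes, of which 65 passed the filter. Of these, 1 fell, 0 rose and 64 did not pass, with a median log2 fold change of -0.045, 43 negative values and 22 positive. Over all 13711 genes tested, 0.511% passed, 0.365% lower in cKO, and 6873 values were negative and 6838 positive. The gene that fell was Map2k1, which encodes the kinase MEK1 that activates ERK downstream of RAS. It had 59.7 and 57.1 CPM in cKO ventricles, against 87.9 and 95.7 CPM in control ventricles, and both cKO libraries stood below both controls. Its log2 fold change was -0.66 ± 0.09 (adjusted p = 0.0200, edgeR's quasi-likelihood test). The call was lost when either replicate 3 was left out (adjusted p = 0.141 without the cKO one, 0.113 without the control one), while the log2 fold change was -0.62 and -0.59 in those fits. The other 8 of 9 RAS and ERK genes did not pass, with Map2k2, which encodes the related kinase MEK2, at 0.12 ± 0.11.

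No other list held a call. In the lists of binding protein proteases and their inhibitors (5 tested), relatives with a binding protein domain (7), receptor adaptors (10), PI3K, AKT and TOR genes (25), FOXO factors (4) and IGF2 mRNA-binding proteins (3), 0 genes passed edgeR's test. Over all 8 lists, 4 of 65 genes had an unadjusted p under 0.05, no higher a share than the 956 of the 13711 genes tested. Beside Map2k1 these were Adam12, a metalloprotease that cleaves binding proteins (log2 fold change -0.41 ± 0.14), the adaptor Gab1 (-0.21 ± 0.08) and the TOR inhibitor Ddit4 (-0.38 ± 0.14). Their adjusted p values in edgeR's test were 0.574, 0.643 and 0.640. Igfbpl1, a binding protein relative, had -0.37 ± 0.20, with a range from -0.68 without cKO replicate 2 to -0.073 without cKO replicate 3. Foxo1, a factor that AKT holds out of the nucleus, had -0.16 ± 0.10, with a range from -0.24 without control replicate 2 to -0.073 without control replicate 3. Igf2bp1 had -0.15 ± 0.08. Pappa, the protease of Igfbp4, had -0.09 ± 0.19, and its inhibitors Stc1 and Stc2 had -0.42 ± 0.23 and -0.17 ± 0.27.

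**Figure D5:**
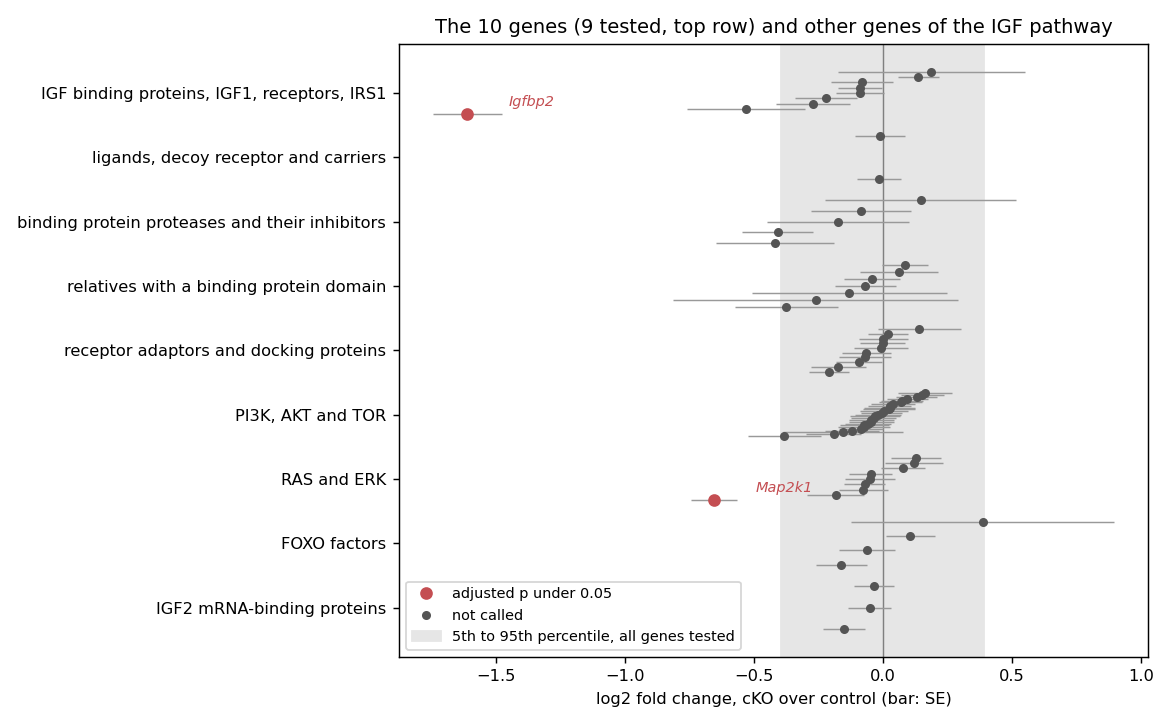
Log2 fold change of cKO over control (horizontal bars are SE) for the 9 tested genes of the set in the top row and the 65 tested genes of the 8 pathway lists below, with the 5th to 95th percentile of all genes tested in grey. Igfbp2 at -1.61 and Map2k1 at -0.66, in red, are the only genes plotted that passed the threshold.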

How the data were processed

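Ventricular RNA of mouse embryos, in 4 libraries with 2 per group, was sequenced as single reads of 75 bases from libraries of 500 ng of total RNA, per the labels' protocols. The values the authors deposited are expected counts, in which reads shared between genes are divided, so they need not be whole. The TruSeq v2 kit does not mark strand. CASAVA 1.8.2, cutadapt 1.3, RSEM 1.2.3 and GRCm38 are named in the submitters' processing notes. Annotation and settings: not given in the sources used here.

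Expected counts were rounded. Symbols, positions and exon lengths came from GENCODE M21 on GRCm38, which matched 36429 of 38293 identifiers; the rest held at most 0.318% of a library's counts. Genes passing edgeR's filter by group (minimum count 10, minimum total 15) numbered 13711. They were scaled by TMM and compared by edgeR 4.0.16 (glmQLFit and glmQLFTest, R 4.3.3) on 2 residual degrees of freedom, with Benjamini-Hochberg adjustment over all of them and a threshold of 0.05. Each SE was taken as the size of the fold change (log2) over the root of F. The steps were tested on simulated counts. Differences of single libraries from the control mean used log2 counts with 0.5 added.

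Expected counts were not whole in all 4 libraries for Igfbp4 and Irs1 and in 1 for Igfbp7. On the same strand, BLAST 2.17.0 found no other transcript with at least 95% identity over 300 bases for any of the 10 genes. Near-identical sequence on the opposite strand was not searched for, although reads from it could be shared in libraries without strand. The source of the Igfbp4 counts that were not whole was not tested. On the opposite strand, exons of Irs1 overlap those of Gm9747, and 85 bases of Igfbp7 overlap Polr2b. Named genes were the 10, Hif1a, Nkx2-5, Igf2, Igf2r, Igfbp1, Irs2, and Ddx3y and Xist for sex. Others were the nearest measured neighbours of Igfbp2, and from each list the genes past the threshold or the one with the smallest p. Map2k2, Pappa, Stc1, Stc2, Krt19, Acta2, Tagln, Cnn1, Cspg4, Myh11, Pdgfrb, Rgs5, Col2a1 and Gm9747 were chosen after their values were seen. The genes and lists were chosen with earlier results of these data known. Alternatives were DESeq2 1.42.0, limma-voom (limma 3.58.1), other scalings and filters, a 1.5-fold threshold, a replicate block, thinning, sex chromosomes left out, and each library left out.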

Additional observations from a re-analysis of the deposited data

How the results depend on the processing

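The 1 call in the set, Igfbp2, was made in all 15 settings, which included each library left out, and of 329 values of named genes 316 kept their direction and their side of the threshold. Over all genes, 70 passed, against 33 with the test against a 1.5-fold change (18 lower in cKO, against 50). Genes higher in cKO numbered 20, against 31 with DESeq2 and 10 with a mean of at least 5 CPM. Leaving out 1 library gave 39 to 141 calls, 15 to 72 higher and 24 to 69 lower, and 0 to 1 call in the pathway lists; such a fit takes the spread of the single remaining library from the other group. The 1.5-fold test gave 0 calls in the lists. Hif1a passed with DESeq2 alone (0.35, adjusted p = 0.0286). The replicate block gave 75 calls, 69 of them among the 70, and changed no call in the set or the lists; deviations of same-numbered libraries correlated at 0.106 over genes, and no label gives the numbers a common source. With the longest transcript as the length, Igfbp2 made up 3.24% of the binding protein pool in cKO and 8.46% in control, and 8 of 10 genes kept their rank. With 1 library left out the log2 fold changes ranged from -0.35 to 0.51 for Igfbp7, from -0.26 to 0.068 for Igf1, from -0.10 to 0.085 for Igf2, from -0.034 to 0.0031 for Igf2r and from -0.0023 to 0.30 for Irs2. With upper-quartile scaling Igf2 had 0.0099 and Igf2r 0.0057. For these shifts the cause was not tested. Counts of 2 to 6 for Igfbp6 and 23 to 84 for Igfbp7 limit what can be said of these genes.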
